A study of Homo sapiens with 9 samples.

Results

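NDRG1, NDRG2, NDRG3 and NDRG4 are the 4 genes of the human NDRG (N-myc downstream regulated gene) family, and they are described here in HCT116, an established cell line from a human colorectal carcinoma. The 4 genes were chosen by name, with their FPKM in the 3 groups already known, from a table of 58735 genes, so their own values are a description and carry no test. A20-WT are the wild-type cells. A20-KO are HCT116 cells in which the A20 gene TNFAIP3 was targeted with CRISPR guides in a lentiviral vector and selected with puromycin, and A20-OE are A20-KO cells that were given an A20 expression construct as a rescue. Each group has 3 libraries of poly-A RNA (9 in all), sequenced as paired reads of 150 bases. The Methods do not state whether the A20-KO cells were 1 clone or a pool, or which guide they carried, and the labels do not say that the libraries of a group came from separate cultures, so the p-values below measure the spread between these libraries, which may be technical. A20-OE cells differ from A20-WT by the knockout procedure and by the expression construct, and no group with an empty construct was analysed here, so A20 and the rest of that procedure cannot be told apart.

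NDRG proteins have the fold of the alpha/beta hydrolases but lack the catalytic residues of the enzymes of that superfamily. NDRG1 was named from its repression by N-myc, and its mRNA is known to be induced by low oxygen, by metal chelators, and by cell differentiation, while its protein is phosphorylated by the kinase SGK1 and then by GSK3 on repeats near its end. NDRG2 is abundant in brain and is often low in tumours. NDRG3 is known as a protein that binds lactate and is marked for destruction by the oxygen sensor EGLN1. NDRG4 is a gene of brain and heart whose promoter is methylated in many colorectal cancers.

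Of the 4 genes, 1 differed strongly between the groups. NDRG1 was highest in A20-OE, intermediate in the libraries labelled A20-KO, and lowest in A20-WT, with no overlap between any 2 groups. NDRG2, NDRG3, and NDRG4 differed between group means by at most 1.34-fold in either direction, and none of them was called in any comparison.

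The 4 genes lie on 4 chromosomes of GRCh38. NDRG1 (ENSG00000104419) is on the minus strand of chromosome 8 from 133237171 to 133302022, NDRG2 (ENSG00000165795) on the minus strand of chromosome 14 from 21016763 to 21070872, NDRG3 (ENSG00000101079) on the minus strand of chromosome 20 from 36651766 to 36746078, and NDRG4 (ENSG00000103034) on the plus strand of chromosome 16 from 58462846 to 58513628. In GENCODE 29, NDRG1 has 29 transcripts, NDRG2 has 78, NDRG3 has 5, and NDRG4 has 55. The length by which the FPKM were divided is the union of all exons, which is 9823 bases for NDRG1, 7550 for NDRG2, 3248 for NDRG3, and 9647 for NDRG4. This is 2.62 times the length of the principal transcript (the longest of those ranked first by the annotation) for NDRG1 and NDRG2, 2.66 times for NDRG4, and 1.10 times for NDRG3. The level of NDRG3 is thus little diluted by exons of minor transcripts, and those of the other 3 genes are more so.

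The targeted gene did not follow the label of A20-KO at the mRNA level. TNFAIP3 was at 0.869, 0.800, and 0.736 FPKM (fragments per kilobase of gene length, scaled to the depth of the library) in A20-WT, at 1.93, 2.16, and 1.04 FPKM in the libraries labelled A20-KO, and at 58.7, 66.5, and 56.5 FPKM in A20-OE. The libraries labelled A20-KO thus held no less A20 mRNA than A20-WT, and every direction drawn from that group below is relative to the label only. An edit by CRISPR need not lower mRNA, and mRNA does not measure A20 protein. The paper shows the A20 level of its knockout and rescue cells in a figure, which was not used here. The libraries held between 23406222 and 24963691 reads. Mitochondrial genes took between 7.52% of the reads in A20-WT and 13.95% in A20-OE, and the part of this in the results was not tested. Of 12 markers of colon epithelium, 7 reached a mean of 0.1 FPKM, among them EPCAM (105 to 130 FPKM as group means), CDX2, KRT8, KRT18, and KRT19, while VIL1, CDX1, LGR5, CEACAM5, and LGALS4 were near 0. The summed level of these markers was 1093 to 1473 FPKM in A20-WT, 1701 to 2245 in the libraries labelled A20-KO, and 1690 to 2235 in A20-OE, and the keratins KRT19 and KRT20 were called higher than in A20-WT in both groups. The call of KRT19 was lost without A20-WT replicate 1 (log2 fold changes 0.93 and 0.97), without A20-WT replicate 2 (0.96) or A20-KO replicate 3 (0.89) for the libraries labelled A20-KO, and without A20-OE replicate 3 for A20-OE (0.96). Leukocyte markers summed to at most 0.499 FPKM in any library, and PTPRC and CD3E, which define leukocytes, had a mean of at most 0.0145 FPKM in any group. Of 6 fibroblast markers only COL1A1 passed the filter, at 5.32, 13.3, and 11.7 FPKM in the 3 groups, and the 6 summed to 4.603 to 5.86 FPKM in A20-WT, 12.6 to 15.1 in the libraries labelled A20-KO, and 11.1 to 12.3 in A20-OE. DCN and LUM were at most 0.0135 FPKM in any library. Endothelial markers summed to at most 0.429 FPKM, and the 6 neural and glial markers to 3.46 to 5.69 FPKM, of which MBP (2.17 to 3.29) and MAP2 (0.943 to 1.48) made up most. In bulk RNA, fewer cells of a kind and less RNA per cell cannot be told apart.

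The members are close in sequence, which bears on whether reads of one could be counted for another. The coding sequence of the principal transcript encodes 394 residues in NDRG1, 371 in NDRG2, 375 in NDRG3, and 391 in NDRG4. Encoded proteins were identical at 57.6% (NDRG1 and NDRG2) to 66.0% (NDRG1 and NDRG3) of aligned residues, and coding bases at 65.4% (NDRG2 and NDRG3) to 71.5% (NDRG1 and NDRG4). NDRG1 alone encodes a 10-residue stretch that occurs 3 times in tandem, and the pattern read by SGK kinases (arginine, any residue, arginine, any pair of residues, then serine or threonine) occurs 4 times in the last 80 residues of NDRG1, 3 times in NDRG2, and 1 time each in NDRG3 and NDRG4. The longest stretch of bases shared by transcripts of any 2 members was 27 bases, in the coding sequences of NDRG2 and NDRG4, against reads of 150 bases. It is shown because it is the place where reads of 2 members were most alike. The stretch of 81 coding bases around it is on the minus strand of chromosome 14 in exons at 21017987 to 21018038 and 21017734 to 21017762 for NDRG2, on the plus strand of chromosome 16 in exons at 58509301 to 58509352 and 58511422 to 58511450 for NDRG4, and on the minus strand of chromosome 20 in exons at 36656360 to 36656411 and 36653673 to 36653701 for NDRG3. The shared 27 bases are in capitals, and the sequences were read from GENCODE 29 transcripts.
NDRG2: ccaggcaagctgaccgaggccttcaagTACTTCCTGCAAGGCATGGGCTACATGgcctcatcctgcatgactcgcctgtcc
NDRG4: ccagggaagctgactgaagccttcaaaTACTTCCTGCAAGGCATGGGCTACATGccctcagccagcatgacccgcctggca
NDRG3: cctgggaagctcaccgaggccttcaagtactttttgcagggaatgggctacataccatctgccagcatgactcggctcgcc

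Over these 81 bases NDRG4 matched NDRG2 at 71 and NDRG3 matched NDRG2 at 65. Exons of NDRG1, NDRG3, and NDRG4 overlap no other gene of GENCODE 29. Of the 7550 exonic bases of NDRG2, 236 overlap exons of TPPP2 and 173 overlap those of AL161668.4, both on the opposite strand, and 73 hold the microRNA gene MIR6717. Whether reads were counted by strand is not given in the sources used here, so reads in those parts cannot be told apart.

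NDRG1, the member that responds to low oxygen and to differentiation, was at 23.3, 25.4, and 27.6 FPKM in A20-WT. It was at 66.0, 65.2, and 59.6 FPKM in the libraries labelled A20-KO. It was at 291, 272, and 296 FPKM in A20-OE. The values of each group lay apart from those of the other 2, and the spread within a group was small beside the steps between groups. The recovered reads behind these values were 5680 to 6780 in A20-WT, 13652 to 15759 in the libraries labelled A20-KO, and 66182 to 66811 in A20-OE. The group means were 25.4 ± 2.16 FPKM for A20-WT, 63.6 ± 3.47 for the libraries labelled A20-KO, and 286 ± 12.7 for A20-OE (mean ± SD with n = 3, as in every value with ± below), so NDRG1 was 2.50-fold higher in the second than in the first group and 4.50-fold higher in the third than in the second. Among the 21636 genes tested NDRG1 was the gene with the 1716th highest mean in A20-WT, the 557th in the libraries labelled A20-KO, and the 104th in A20-OE.

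NDRG3, the lactate-binding member, was at 16.9, 15.9, and 16.4 FPKM in A20-WT. It was at 16.3, 17.4, and 15.9 FPKM in the libraries labelled A20-KO. It was at 17.5, 17.1, and 19.0 FPKM in A20-OE. The libraries labelled A20-KO overlapped both other groups, and the 3 A20-OE libraries lay just above the 3 of A20-WT. The means were 16.4 ± 0.506, 16.6 ± 0.776, and 17.9 ± 1.01 FPKM (SD, n = 3 each), which is 1.09-fold higher in A20-OE than in A20-WT, and between 1206 and 1419 reads lay behind each value.

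NDRG2, the member often low in tumours, was at 2.57, 2.16, and 2.78 FPKM in A20-WT. It was at 3.16, 2.70, and 3.09 FPKM in the libraries labelled A20-KO. It was at 3.05, 2.95, and 2.88 FPKM in A20-OE. A20-WT overlapped the libraries labelled A20-KO, and all 3 A20-OE libraries lay above A20-WT by a small margin. The means were 2.50 ± 0.317, 2.99 ± 0.246, and 2.96 ± 0.0866 FPKM (SD, n = 3 each), on 407 to 580 reads a library. The margin by which A20-OE lay above A20-WT was smaller than the range within A20-WT.

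NDRG4, the member known for its methylated promoter, was at 1.82, 2.05, and 2.04 FPKM in A20-WT. It was at 2.24, 2.49, and 2.56 FPKM in the libraries labelled A20-KO. It was at 1.79, 1.75, and 1.91 FPKM in A20-OE. The libraries labelled A20-KO stood above both other groups without overlap, and A20-WT and A20-OE overlapped. The means were 1.97 ± 0.132, 2.43 ± 0.167, and 1.82 ± 0.0803 FPKM (SD, n = 3 each), on 404 to 590 reads a library. The mean of the libraries labelled A20-KO exceeded both others by more than the SD of any group.

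**Figure D1:**
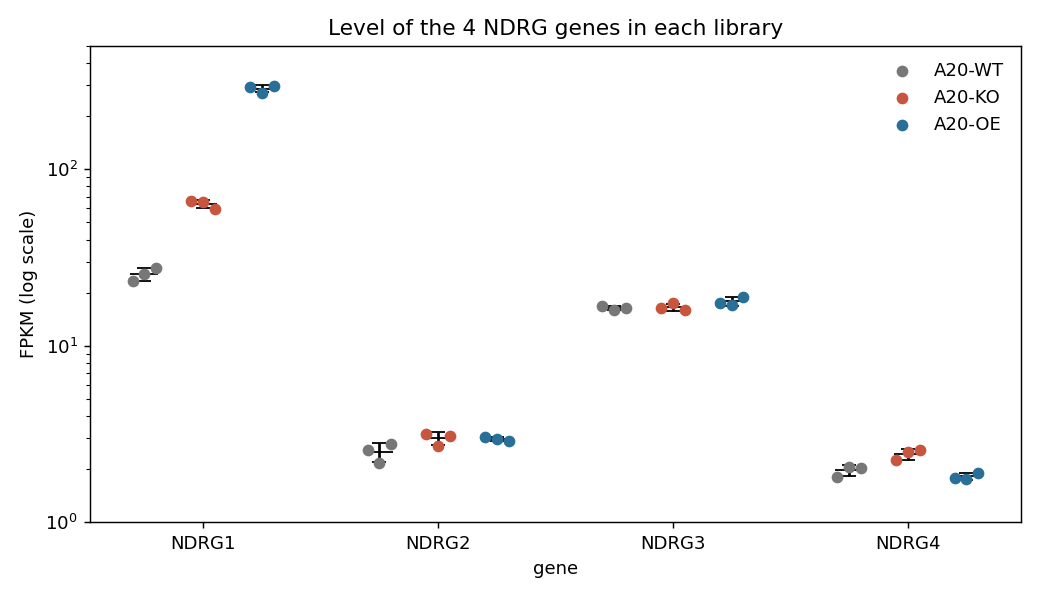
FPKM on a log scale of the 4 NDRG genes in the 9 libraries, with 1 point a library and a bar with whiskers for the mean ± SD of 3 libraries. NDRG1 stands at 25.4, 63.6, and 286 FPKM as group means, and the points of the other 3 genes stay within 1.75 to 3.16 FPKM (NDRG2 and NDRG4) or 15.9 to 19.0 FPKM (NDRG3).

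Within each group the order of the means was NDRG1, NDRG3, NDRG2, NDRG4. NDRG1 and NDRG3 lay apart in every library, at 23.3 FPKM or more against 19.0 or less. NDRG2 and NDRG4 were neighbours in that order: their libraries lay apart in A20-WT, in the libraries labelled A20-KO, and in A20-OE, with the closest pair of values in A20-WT, at 2.16 and 2.05 FPKM. The plot of levels by library shows these as 2 higher and 2 lower genes, and the gap between the pairs exceeds any difference between groups except that of NDRG1. When the same reads were divided by the length of the principal transcript in place of the union of exons, the order stayed the same, with 66.5 for NDRG1, 17.97 for NDRG3, 6.56 for NDRG2, and 5.24 for NDRG4 in A20-WT, as FPKM per principal transcript. NDRG1 was at 166 and 748 on this scale in the libraries labelled A20-KO and in A20-OE.

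The make-up of the family moved with NDRG1. The summed FPKM of the 4 genes was 46.3 ± 2.24 in A20-WT, 85.6 ± 3.77 in the libraries labelled A20-KO, and 309 ± 13.6 in A20-OE (SD, n = 3 each). NDRG1 took 54.9% ± 2.29 of this sum in A20-WT, 74.3% ± 0.917 in the libraries labelled A20-KO, and 92.7% ± 0.174 in A20-OE. NDRG3 took 35.5%, 19.4%, and 5.79% in the same order, though its own level differed by 1.09-fold at most. Without NDRG1, the other 3 genes summed to 20.9 ± 0.671, 21.97 ± 0.562, and 22.7 ± 1.04 FPKM, so almost all of the difference in the sum was in NDRG1. Per principal transcript, the share of NDRG1 was 69.1%, 83.7%, and 95.9%.

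**Figure D2:**
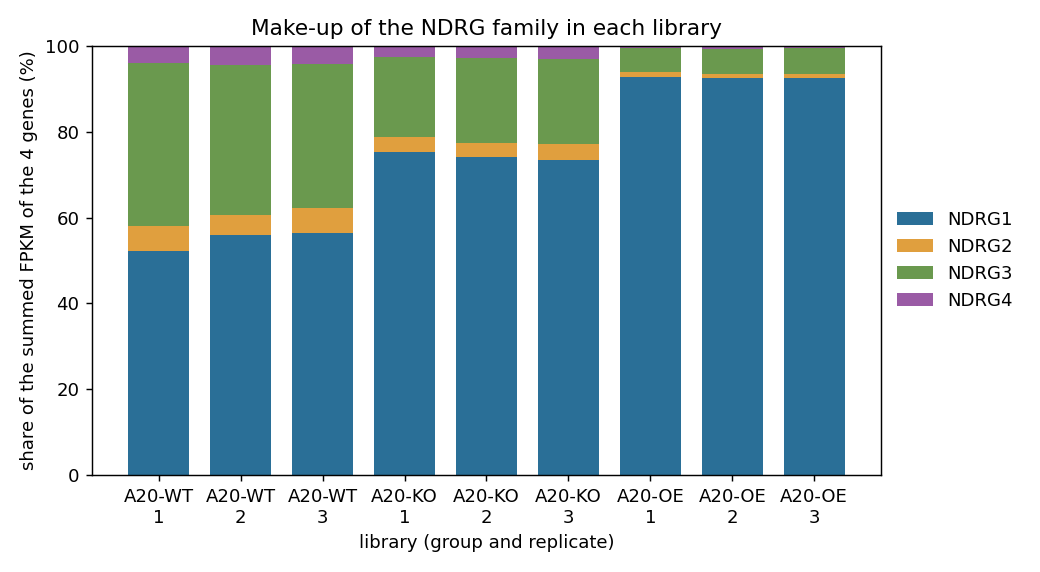
Share of the summed FPKM of the 4 genes, in percent, taken by each NDRG gene in each of the 9 libraries. The NDRG1 part grows from 54.9% in A20-WT to 74.3% in the libraries labelled A20-KO and 92.7% in A20-OE as means of 3 libraries, and the NDRG3 part shrinks from 35.5% to 5.79%.

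Across all genes, differences between groups were tested with limma on log2(FPKM + 0.1), and a gene was called at an adjusted p under 0.05 with a log2 fold change above 1 in size. This scale understates the change of genes near 0.1 FPKM. Between the libraries labelled A20-KO and A20-WT, 1 of the 4 NDRG genes, NDRG1, was called, beside 6.99% of all 21636 genes tested (4.91% higher and 2.08% lower). The groups did not overlap for 2 of the 4, NDRG1 and NDRG4, beside 38.1% of all genes. The log2 fold changes were 1.32 for NDRG1 (SE 0.095), 0.25 for NDRG2 (SE 0.13), 0.01 for NDRG3 (SE 0.082), and 0.29 for NDRG4 (SE 0.12). The value of NDRG1 was the 884th highest of the genes tested, and those of the other 3 lay inside the range of -1.01 to 1.23 that held the middle 90% of genes.

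Between A20-OE and the libraries labelled A20-KO, NDRG1 was again the 1 member called, beside 2.39% of all genes (1.56% higher and 0.832% lower). Groups did not overlap for NDRG1 and NDRG4, beside 35.4% of all genes. The log2 fold changes were 2.17 for NDRG1 (SE 0.095), -0.01 for NDRG2 (SE 0.13), 0.11 for NDRG3 (SE 0.082), and -0.40 for NDRG4 (SE 0.12). NDRG1 had the 131st highest value of all genes tested. Of the genes tested, 18.7% had a lower value than that of NDRG4, which was short of the threshold of 1 in size.

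Between A20-OE and A20-WT, NDRG1 was the 1 member called, beside 11.9% of all genes (7.68% higher and 4.21% lower), and groups did not overlap for NDRG1, NDRG2, and NDRG3, beside 45.3% of all genes. The log2 fold changes were 3.49 for NDRG1 (SE 0.095), 0.24 for NDRG2 (SE 0.13), 0.12 for NDRG3 (SE 0.082), and -0.11 for NDRG4 (SE 0.12). NDRG1 was 11.2-fold higher by group means, the 26th highest log2 fold change of the genes tested. The 3 comparisons share libraries, so their values are set side by side and are not independent of each other, and because the values of the 4 genes were known when they were chosen, nothing is read from their counts beside the shares of all genes. The median over all genes was -0.005, 0.013, and 0.025 in the 3 comparisons, in the order given.

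**Figure D3:**
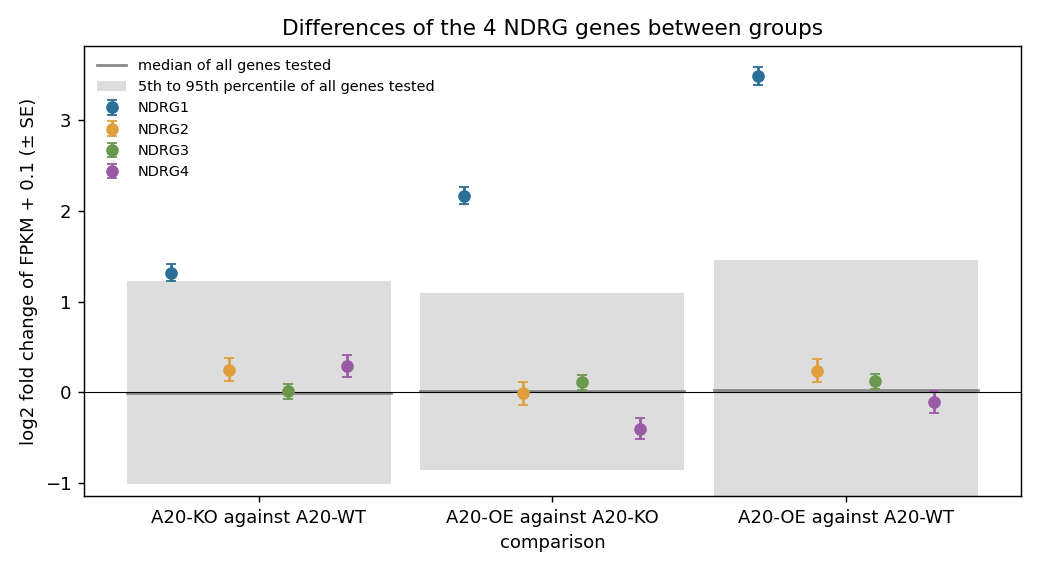
Log2 fold change of FPKM + 0.1 with its standard error for the 4 NDRG genes in the 3 comparisons, over grey bars that span the 5th to the 95th percentile of all 21636 genes tested. NDRG1 lies above the grey bar in each comparison, at 1.32, 2.17, and 3.49, and the other 3 genes lie inside it.

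The genes that are known to act on NDRG genes, or with their proteins, were described from lists that were also chosen with earlier results of these data known. The lists are given by their counts and medians, and no list was tested as a set. Where a list given by counts had no call, the number of its genes at an unadjusted p under 0.05 and the number called by limma-voom on recovered reads are given.

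MYC and N-myc repress NDRG1, and the MXD and MXI1 proteins oppose MYC at its sites. MYC itself was at 138 ± 19.7 FPKM in A20-WT, 106 ± 1.43 in the libraries labelled A20-KO, and 120 ± 10.4 in A20-OE (SD, n = 3 each) and was not called in any comparison, and MYCN had no reads in any library. Of the 13 genes of the MYC network that were tested (of 14), none fell between the libraries labelled A20-KO and A20-WT (median log2 fold change 0.29). The 2 that rose stand beside 4.91% of all genes called higher, and the absence of a fall beside 2.08% called lower. The 2 genes were MXD4, from 4.65 ± 1.26 to 12.04 ± 1.08 FPKM (log2 fold change 1.39, SE 0.18, adjusted p = 0.0013 from limma), and MLXIPL, the carbohydrate-response factor ChREBP, from 20.01 ± 4.36 to 48.2 ± 7.82 FPKM (1.28, SE 0.17, adjusted p = 0.0014 from limma). In A20-OE against the libraries labelled A20-KO 1 gene rose, beside 1.56% of all genes, with a median of -0.06. This was MXD1, from 2.50 ± 0.233 to 5.98 ± 0.345 FPKM (1.23, SE 0.13, adjusted p = 0.0019 from limma). Between A20-OE and A20-WT, 3 of the 13 rose, beside 7.68% of all genes, with a median of 0.20. These were MXD1 (log2 fold change 2.01), MXI1 (1.16), and MXD4 (1.07). MXD1 and MXI1, like NDRG1, had their highest means in A20-OE and their lowest in A20-WT. The call of MXD4 in A20-OE against A20-WT was lost without A20-WT replicate 1, where its log2 fold change was 0.83.

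Low oxygen acts on NDRG1 through the HIF factors, which EGLN enzymes mark for destruction. HIF1A mRNA was 36.2 ± 10.6, 23.0 ± 2.35, and 18.2 ± 0.478 FPKM in A20-WT, the libraries labelled A20-KO, and A20-OE, the reverse of the order of NDRG1, while EPAS1, which encodes HIF-2α, was at 10.2 ± 0.525, 13.9 ± 2.43, and 20.49 ± 1.06 FPKM. Neither was called in any comparison, with log2 fold changes of -0.95 and 0.99 in A20-OE against A20-WT. EGLN1, the enzyme that acts on NDRG3 protein, was at 17.1, 13.9, and 18.1 FPKM as group means and was not called. Of 9 genes of the HIF and oxygen-sensor list that were tested (of 10), none was called between the libraries labelled A20-KO and A20-WT or between A20-OE and the libraries labelled A20-KO (medians -0.17 and 0.25). Over all genes, 6.99% and 2.39% were called there. Between A20-OE and A20-WT 1 of the list rose, beside 7.68% of all genes, with a median of 0.08. This was EGLN3, from 2.27 ± 0.326 to 5.26 ± 0.137 FPKM (log2 fold change 1.18, SE 0.12, adjusted p = 0.00015 from limma). Of the 9 genes, 4 had an unadjusted p under 0.05 in limma in each of the first 2 comparisons, and limma-voom called none there. The mRNA of HIF1A does not measure its protein, which is controlled by destruction.

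The genes that HIF is known to induce, as it induces NDRG1, are the longest of the lists, and all 28 were tested. Between the libraries labelled A20-KO and A20-WT, 5 of the 28 rose, beside 4.91% of all genes. None fell, beside 2.08% of all genes, and the median was 0.36. The largest rises were those of ANKRD37, from 2.22 ± 0.330 to 8.77 ± 1.46 FPKM (log2 fold change 1.93, SE 0.15, adjusted p = 0.00015 from limma), and of ANGPTL4, a secreted inhibitor of lipoprotein lipase, from 12.02 ± 2.43 to 40.8 ± 6.82 FPKM (1.76, SE 0.17, adjusted p = 0.00037 from limma). The other 3 were P4HA1, which encodes a collagen prolyl hydroxylase (log2 fold change 1.38), BHLHE40 (1.13), and DDIT4, an inhibitor of mTORC1 (1.21). Without A20-WT replicate 1 the values of BHLHE40 and DDIT4 were 0.99 and 0.67 and neither was called, and DDIT4 was called in 6 of 19 alternative settings. Of the exonic bases of ANKRD37, 35.2% overlap UFSP2 on the opposite strand, and of those of DDIT4 41.2% overlap DDIT4-AS1.

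In A20-OE against the libraries labelled A20-KO 6 genes of the 28 rose, beside 1.56% of all genes. None fell, beside 0.832% of all genes, and the median was 0.71. The largest rise by rule was that of ALDOA, which encodes the glycolytic enzyme aldolase A, from 2.57 ± 0.792 to 7.87 ± 1.23 FPKM (log2 fold change 1.61, SE 0.34, adjusted p = 0.024 from limma). Its call was lost without A20-KO replicate 1 or 2 or any A20-OE library, at log2 fold changes of 1.39 to 1.67, and 42.3% of its exonic bases are shared with AC093512.2 on the same strand, where reads cannot be given to 1 gene, so its level is uncertain. PDK1, the kinase that keeps pyruvate out of mitochondria, rose from 1.02 ± 0.0610 to 2.44 ± 0.195 FPKM (1.18, SE 0.17, adjusted p = 0.0067 from limma). With a pseudocount of 1 FPKM the value of PDK1 was 0.77 and it was not called. The other 4 were LDHA, which makes lactate (1.12), the mitophagy receptors BNIP3 (1.06) and BNIP3L (1.04), and P4HA1 (1.04). The last 2 had values of 0.99 and no call when libraries were scaled to their total reads.

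Between A20-OE and A20-WT, 11 of the 28 rose, beside 7.68% of all genes. None fell, beside 4.21% of all genes, and the median was 0.85. The largest rises were those of ANGPTL4, to 72.6 ± 9.40 FPKM (log2 fold change 2.60, SE 0.17, adjusted p = 2.1e-05 from limma), and of P4HA1, from 22.5 ± 1.78 to 120 ± 4.64 FPKM (2.42, SE 0.091, adjusted p = 2e-06 from limma). Other classical members were not called. CA9 was at 0.624, 0.220, and 0.675 FPKM as group means, ADM at 33.2, 42.8, and 36.1, and VEGFA at 4.25, 5.92, and 6.79. The values of CA9 rest on 2 to 39 reads a library, and 38.5% of its exonic bases overlap ARHGEF39. By fold alone, VEGFA (log2 fold change 0.66, adjusted p = 0.0012 from limma), LDHA (0.965, adjusted p = 0.00033 from limma), and SLC2A1 (0.75, adjusted p = 0.0013 from limma) fell short of a call. ADM was at 0.12 (adjusted p = 0.5 from limma). P4HA1 had the same order of groups as NDRG1, with 22.5, 58.4, and 120 FPKM, and NDRG1 had a larger log2 fold change than any of the 28 genes in A20-OE against the libraries labelled A20-KO and in A20-OE against A20-WT.

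**Figure D4:**
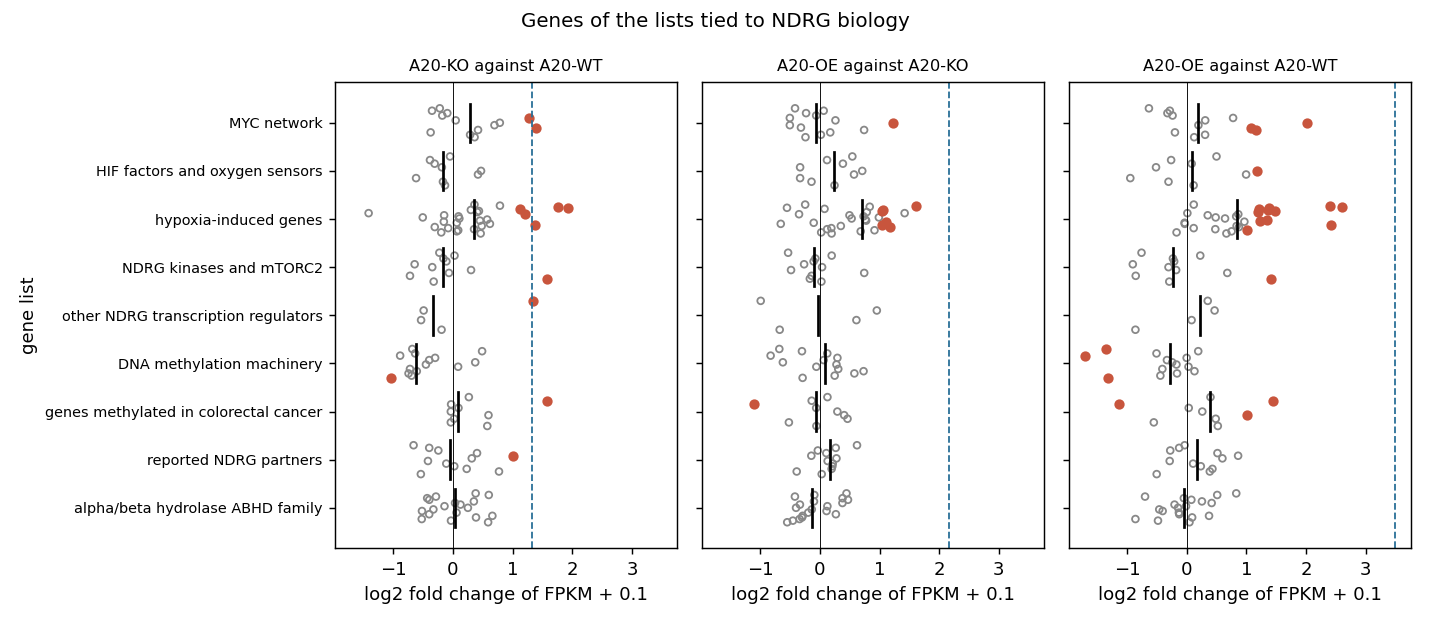
Log2 fold change of FPKM + 0.1 of each tested gene of 9 lists in the 3 comparisons, with filled red points for called genes, open points for the rest, a black bar for the list median and a dashed line for NDRG1. The median of the hypoxia-induced genes moves from 0.36 to 0.71 and 0.85 over the 3 panels, and the dashed line lies at 1.32, 2.17, and 3.49.

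Other factors reported to act on NDRG genes are given by gene. EGR1, an immediate early factor, rose between the libraries labelled A20-KO and A20-WT, from 22.6 ± 6.72 to 55.5 ± 2.85 FPKM (log2 fold change 1.34, SE 0.19, adjusted p = 0.0019 from limma), and was at 27.9 ± 1.53 FPKM in A20-OE. The glucocorticoid receptor gene NR3C1 was at 1.92, 1.35, and 2.67 FPKM and PPARG at 7.92, 5.41, and 8.34 FPKM as group means, with no call in any comparison. WT1 had no read in any library.

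SGK1, a kinase of NDRG1, was at 1.25 ± 0.0816 FPKM in A20-WT, 0.725 ± 0.0852 in the libraries labelled A20-KO, and 0.648 ± 0.0409 in A20-OE. Its log2 fold changes of -0.72 and -0.85 against A20-WT fell short of a call by fold alone (adjusted p = 0.013 and 0.0036 from limma). Of the 11 genes of the kinase and mTORC2 list that were tested (of 12), 1 rose between the libraries labelled A20-KO and A20-WT, beside 4.91% of all genes. This was SGK2, from 0.366 ± 0.159 to 1.25 ± 0.157 FPKM (log2 fold change 1.58, SE 0.24, adjusted p = 0.0025 from limma). SGK2 was also the 1 gene of the list called by limma between A20-OE and A20-WT (1.41, SE 0.24, adjusted p = 0.0024 from limma), beside 7.68% of all genes called higher. Limma-voom called 3 genes of the list in that comparison. None of the list was called between A20-OE and the libraries labelled A20-KO, beside 2.39% of all genes. There 2 genes had an unadjusted p under 0.05 in limma, and limma-voom called none. With a pseudocount of 1 FPKM the values of SGK2 were 0.72 and 0.63, and it was not called in either comparison. The list medians were -0.16, -0.10, and -0.23. SGK3 was at 3.68, 2.93, and 2.96 FPKM, GSK3A at 20.4, 17.4, and 11.98, GSK3B at 10.8, 11.1, and 12.7, MTOR at 10.9, 7.05, and 5.80, and RICTOR at 2.39, 2.25, and 3.83, as group means without a call by limma. In A20-OE against A20-WT, MTOR (log2 fold change -0.90, adjusted p = 0.0018 from limma), GSK3A (-0.76, adjusted p = 0.0025 from limma), and RICTOR (0.68, adjusted p = 0.039 from limma) fell short by fold alone. Phosphorylation of the NDRG proteins was not measured here.

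Of 12 tested genes (of 13) for reported partners of NDRG proteins, 1 rose between the libraries labelled A20-KO and A20-WT, beside 4.91% of all genes. This was CD82, a tetraspanin reported as a metastasis suppressor, from 2.08 ± 0.681 to 4.12 ± 0.346 FPKM (log2 fold change 1.00, SE 0.24, adjusted p = 0.017 from limma). Its call was lost without A20-WT replicate 1 (0.72), without A20-KO replicate 1 (0.94), and without A20-KO replicate 3 (1.00, adjusted p = 0.053 from limma). None was called by limma or limma-voom in the other 2 comparisons, where limma called 2.39% and 11.9% of all genes. In these 2 comparisons 3 and 5 genes of the list had an unadjusted p under 0.05. The list medians in the 3 comparisons were -0.04, 0.17, and 0.17. CDH1, which encodes E-cadherin, was at 17.5 ± 0.541, 21.97 ± 2.84, and 26.5 ± 0.799 FPKM, RAB4A, an endosomal GTPase that NDRG1 is known to bind, at 14.9, 17.6, and 20.1 FPKM, and CTNNB1, which encodes β-catenin, at 33.5, 25.2, and 27.5 FPKM. Of the ABHD genes, which encode other alpha/beta hydrolase proteins, 19 of 21 were tested and none was called in any comparison by limma or limma-voom. In each comparison 9 had an unadjusted p under 0.05, and the medians were 0.04, -0.14, and -0.05. Limma called 6.99%, 2.39%, and 11.9% of all genes in the 3 comparisons. ABHD10 was the most abundant of the ABHD genes, at 57.5, 74.3, and 101.3 FPKM.

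NDRG4 and NDRG2 are known for promoters that are methylated in tumours, so the letters of their promoters and the genes of DNA methylation are given beside their low levels. RefSeq promoter windows (GRCh38.p14) run from 250 bases before to 50 bases after a start, and 5 windows of NDRG2 and 4 of NDRG4 were found. No window was available for NDRG1 or NDRG3, so the counts of letters below do not cover them. The window richest in CG for each gene is shown, without the bases after the start, because CG is where methylation occurs, and CG is in capitals. The one of NDRG4 is chr16:58463465-58463714 on the plus strand and the one of NDRG2 is chr14:21025062-21025311 on the minus strand.
NDRG4: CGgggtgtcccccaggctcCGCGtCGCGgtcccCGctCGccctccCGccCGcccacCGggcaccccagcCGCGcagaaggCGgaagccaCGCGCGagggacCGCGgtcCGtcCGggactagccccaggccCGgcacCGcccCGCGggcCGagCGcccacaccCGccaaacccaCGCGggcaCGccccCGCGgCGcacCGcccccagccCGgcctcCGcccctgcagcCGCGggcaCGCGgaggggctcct
NDRG2: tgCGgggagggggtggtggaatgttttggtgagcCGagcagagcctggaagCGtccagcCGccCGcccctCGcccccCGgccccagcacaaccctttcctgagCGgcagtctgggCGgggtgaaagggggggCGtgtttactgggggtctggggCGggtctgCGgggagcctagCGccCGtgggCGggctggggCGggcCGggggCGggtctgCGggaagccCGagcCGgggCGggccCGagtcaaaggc

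The printed bases of NDRG4 hold 40 CG and those of NDRG2 hold 23. Over the full 300 bases the NDRG4 window holds 49 CG, more than 98.4% of all 35116 RefSeq windows, and the NDRG2 window holds 27, more than 71.8%, against a median of 14. The letters ACGTG, a form of the core of the hypoxia response element, occur on neither strand of the 9 windows. Of all windows, 21.4% hold them. The MYC site CACGTG contains these letters and reads the same on both strands. It occurs in none of the 9 windows, where 7.26% of all windows hold it. These counts say only that ACGTG and CACGTG are not in these 9 windows. GCGTG, another form of the core, was not counted. It is among the printed bases of NDRG2, and its reverse complement CACGC is among those of NDRG4. Methylation itself was not measured here.

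None of the DNA methyltransferases and their partners was called higher in any comparison, beside 4.91%, 1.56%, and 7.68% of all genes. Over all genes tested, 2.08% were called lower between the libraries labelled A20-KO and A20-WT and 4.21% between A20-OE and A20-WT. Of 14 tested genes (of 15), 1 fell between the libraries labelled A20-KO and A20-WT, UHRF1, which guides DNMT1 to newly copied DNA, from 49.8 ± 6.72 to 24.2 ± 1.84 FPKM (log2 fold change -1.03, SE 0.11, adjusted p = 0.00054 from limma), with a list median of -0.62. Its value was -0.98 without A20-WT replicate 2, -0.97 without A20-WT replicate 3, and -0.97 without A20-KO replicate 3, where it was not called. Between A20-OE and A20-WT, 3 fell, with a median of -0.29. These were HELLS, a chromatin remodeller, from 11.2 ± 1.37 to 3.37 ± 0.461 FPKM (-1.71, SE 0.14, adjusted p = 4.5e-05 from limma), DNMT1, the maintenance methyltransferase, from 41.0 ± 6.10 to 15.8 ± 0.595 FPKM (-1.36, SE 0.12, adjusted p = 6.5e-05 from limma), and UHRF1 (-1.32). None was called between A20-OE and the libraries labelled A20-KO, beside 2.39% of all genes, with a median of 0.09. There 7 genes of the list had an unadjusted p under 0.05 in limma, and limma-voom called none.

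Of 25 other genes whose promoters are known to be methylated in colorectal cancer, 16 did not reach a mean of 0.1 FPKM and 4 of these had no read in any library, among them BMP3 and SFRP2, whereas NDRG4 was at 1.75 FPKM or more in every library. The tested genes of the list ran from 0.152 (FBN1) to 35.3 FPKM (SEPT9) as means of all libraries, beside 2.07 for NDRG4. Of the 9 tested, CACNA1G, a calcium channel gene, rose between the libraries labelled A20-KO and A20-WT, beside 4.91% of all genes. It went from 0.881 ± 0.120 to 2.82 ± 0.355 FPKM (log2 fold change 1.57, SE 0.16, adjusted p = 0.00038 from limma). CDKN2A, the p16 gene, fell between A20-OE and the libraries labelled A20-KO, beside 0.832% of all genes, from 11.2 ± 1.38 to 5.14 ± 0.244 FPKM (-1.11, SE 0.17, adjusted p = 0.0071 from limma). Between A20-OE and A20-WT, CACNA1G (1.44) and IGF2 (1.00, called in 7 of 18 alternatives) rose and CDKN2A fell (-1.14), with a value of -0.96 and no call without A20-WT replicate 3. Over all genes, 7.68% were called higher and 4.21% lower there. With a pseudocount of 1 FPKM the values of CACNA1G were 1.02 against A20-WT in the libraries labelled A20-KO, where it was called, and 0.92 in A20-OE, where it was not. For IGF2 (ENSG00000167244) 73.7% of exonic bases are shared with a second IGF2 entry and 20.9% with INS-IGF2, both on the same strand, so its level is uncertain. Its group means were 0.0881 and 0.284 FPKM, and the call was lost without any 1 of the A20-WT libraries, A20-KO replicate 1, or A20-OE replicate 1 or 2, at values from 0.89 to 1.10. The list medians were 0.09, -0.06, and 0.40.

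Of the 6 genes tested within 1 Mb of NDRG1, by the lowest coordinates of the genes in the table, none was called by limma or limma-voom in any comparison. Among them 2, 1, and 1 had an unadjusted p under 0.05 in limma in the 3 comparisons. Limma called 6.99%, 2.39%, and 11.9% of all genes tested. With 6 genes, an absence of calls cannot be told apart from those shares. The log2 fold changes of the 6 genes in A20-OE against A20-WT ran from -0.34 to 1.19 with a median of -0.20. The highest of these was that of AF230666.1, at 0.0901 ± 0.0411 FPKM in A20-WT and 0.372 ± 0.267 FPKM in A20-OE. Its libraries in these groups did not overlap, and they held 2 to 5 reads in A20-WT and 7 to 25 in A20-OE. Exons of PHF20L1 on the opposite strand overlap 37.6% of the exonic bases of AF230666.1. ST3GAL1, a sialyltransferase gene 217.7 kb away, was at 4.28 ± 0.210, 3.56 ± 0.339, and 3.44 ± 0.242 FPKM, and PHF20L1, on the other side, was at 1.99 ± 0.388, 1.49 ± 0.163, and 1.53 ± 0.156 FPKM. LRRC6 was at 1.74, 2.38, and 1.52 FPKM, and ST13P6 and AC103706.1 were at 0.428 to 0.598 FPKM as group means.

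None of the 6 nearest tested genes of NDRG2 was called by limma, where 3, 1, and 4 had an unadjusted p under 0.05 in the 3 comparisons, and limma-voom called 1 in A20-OE against A20-WT, with METTL17 at 15.9, 12.5, and 12.2 FPKM and ARHGEF40 at 1.61, 2.39, and 2.18. Of those of NDRG3, DSN1, a kinetochore gene, fell between A20-OE and A20-WT, from 15.2 ± 1.53 to 7.23 ± 0.597 FPKM (log2 fold change -1.06, SE 0.10, adjusted p = 0.00013 from limma), and its value without A20-WT replicate 1 was -0.98. Of those of NDRG4, GINS3, a subunit of the replicative helicase, was the 1 that fell, from 4.43 ± 0.881 FPKM in A20-WT to 1.96 ± 0.182 in the libraries labelled A20-KO (-1.12, SE 0.18, adjusted p = 0.0029 from limma) and 1.39 ± 0.245 in A20-OE (-1.60, SE 0.18, adjusted p = 0.00025 from limma). Without A20-WT replicate 1 the first of these was -0.98. SETD6, which starts 52.6 kb from NDRG4, was at 6.55, 4.26, and 3.78 FPKM and was not called. Beside these neighbours, limma called 6.99%, 2.39%, and 11.9% of all genes in the 3 comparisons. It called 2.08%, 0.832%, and 4.21% of all genes lower.

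**Figure D5:**
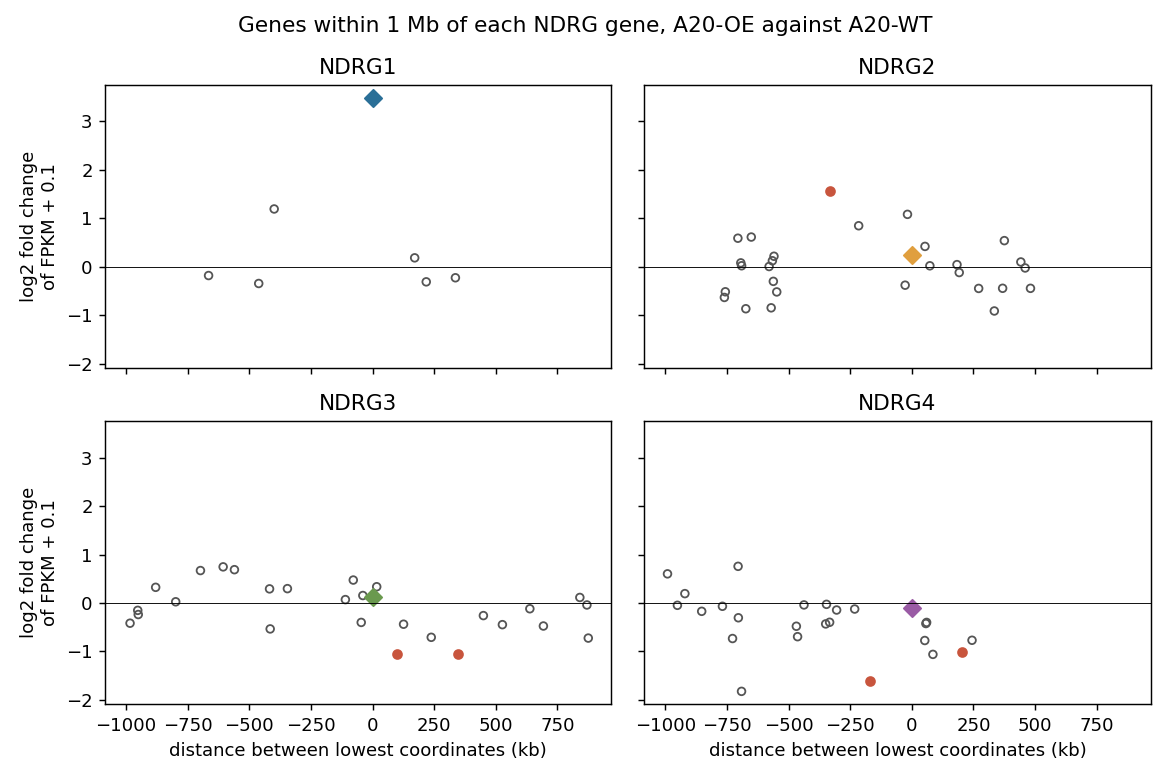
Log2 fold change of FPKM + 0.1 in A20-OE against A20-WT for the genes tested within 1 Mb of each NDRG gene, against the distance in kb between lowest coordinates, with a diamond for the NDRG gene and filled red points for called genes. The diamond of NDRG1 stands at 3.49 above its 6 neighbours, which run from -0.34 to 1.19.

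The genes whose pattern was most like that of each member were taken as the 5 with the highest Pearson correlation of log2(FPKM + 0.1) over the 9 libraries, among 12795 other genes with a mean of at least 1 FPKM. These are descriptions with no p, and the points share libraries, groups, and depth. For NDRG1 they were LOXL2 (r = 0.998), EIF4B (0.994), ADIRF-AS1 (0.993), NLRP1 (0.993), and KLF4 (0.993). LOXL2, a lysyl oxidase, was at 7.58 ± 1.11, 13.98 ± 0.999, and 40.0 ± 1.65 FPKM in the 3 groups, and KLF4, a factor of epithelial differentiation, was at 15.2 ± 2.76, 27.2 ± 2.15, and 64.5 ± 2.06 FPKM. EIF4B, a translation initiation factor, kept the order over a smaller range, at 107, 131, and 190 FPKM, and NLRP1 was at 0.687, 1.06, and 1.98 FPKM. Of the 5748 exonic bases of ADIRF-AS1, 917 overlap ADIRF and 175 overlap AGAP11 on the opposite strand. On the same strand 440 are shared with MMRN2 and 465 with AL136982.7, where reads cannot be given to 1 gene.

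For NDRG4 the 5 were STAT6 (0.974), MICA (0.967), SLC29A2 (0.958), CEL (0.958), and MOV10 (0.958), each with its highest mean in the libraries labelled A20-KO. STAT6, the factor of interleukin-4 signalling, was at 11.5, 14.6, and 10.6 FPKM, and MICA, a ligand of the killer-cell receptor NKG2D, was at 12.3, 15.9, and 10.2 FPKM. For NDRG2 the 5 had r of 0.909 to 0.933 and were PELI3 and the noncoding or unnamed genes AC040970.1, AC004034.1, LINC01137, and AC010834.2. For NDRG3 they had r of 0.911 to 0.926 and were CPM, ACOX3, AC020904.2, AC132938.3, and AC068870.2. NDRG2 and NDRG3 varied little, so that their r rests on differences about as large as the spread within a group. Between the members themselves, over the same 9 libraries, r was 0.696 for NDRG1 and NDRG3, 0.577 for NDRG1 and NDRG2, and -0.357 for NDRG1 and NDRG4.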

How the data were processed

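The authors sequenced poly-A RNA, aligned reads with HISAT2 2.0.5, counted them on genes with featureCounts 1.5.0-p3 (versions from the submitters' processing notes), and deposited FPKM per gene with gene lengths. Per the Methods they tested their own counts with DESeq2, which was not run here. All 58735 gene identifiers and coordinates match GENCODE 29 on GRCh38. The genome build used in alignment and the strand setting are not given in the sources used here. The deposited values already carry a median-of-ratios scaling, since size factors computed from them were all 1. FPKM times length was within 0.1 of a whole read for 100% of nonzero values, which gave the reads of each gene, and 23406222 to 24963691 reads a library. Replicates of a group differed by more than sampling noise. The sources used here name no molecular identifiers, so a read is not necessarily a separate molecule.

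Groups were taken from the sample titles. Genes with a mean of at least 0.1 FPKM over the 9 libraries were fitted on log2(FPKM + 0.1) with limma 3.58.1 (variance trend, R 4.3.3), with the 3 groups in one fit, group as the only term, and Benjamini-Hochberg adjustment over all 21636 genes. Replicate numbers do not pair the libraries by the labels. Members, gene lists, and tests were chosen with earlier results of these data known. The genes named are the 4 members, TNFAIP3, in each list and comparison the 2 called genes with the largest rise and the 2 with the largest fall (lists of up to 12 genes by their members' values), the 3 nearest tested genes on each side of a member, and the 5 most correlated. Other genes were named after their values were seen. Exonic overlaps and coding sequences came from GENCODE 29, with encoded proteins aligned by Biopython 1.88 (BLOSUM62), and promoter windows from RefSeq on GRCh38.p14. With 3 libraries against 3, an exact permutation test cannot give p under 0.1, and none is given. Alternatives were other pseudocounts, filters, and scalings, a fit on 2 groups, the replicate block, no variance trend, each library left out in turn, and limma-voom run on recovered reads. Some genes are not reported here.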

Additional observations from a re-analysis of the deposited data

How the results depend on the processing

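NDRG1 met the thresholds of a call in each of the 3 comparisons under all 19 alternatives, at log2 fold changes of 1.26 to 1.38 (the libraries labelled A20-KO against A20-WT), 2.12 to 2.20 (A20-OE against the libraries labelled A20-KO), and 3.42 to 3.55 (A20-OE against A20-WT), and NDRG2, NDRG3, and NDRG4 met them under none. The 4 genes were chosen with their values known, so this describes those values and is no test. Leaving out a library of the group not compared cannot change a log2 fold change. With a pseudocount of 1 FPKM, which shrinks low genes by construction, NDRG4 moved from -0.40 to -0.28 in A20-OE against the libraries labelled A20-KO, the genes called numbered 472, 155, and 976 in the 3 comparisons in place of 1512, 517, and 2571, and the calls in the 9 lists numbered 5 in place of 8 in the second comparison. The same pseudocount ended the calls of CD82 (0.76) and GINS3 (-0.87) in the first comparison, MXD1 (0.99) and CDKN2A (-0.99) in the second, and MXD4 (0.94), EGLN3 (0.94), and DSN1 (-0.97) in the third. With a filter at a mean of 1 FPKM, which tests fewer genes, 931, 289, and 1555 genes were called. Leaving out 1 library gave 242 to 612 calls in A20-OE against the libraries labelled A20-KO, with 306 without A20-KO replicate 1, 315 without A20-KO replicate 3, 242 without A20-OE replicate 1, and 255 without A20-OE replicate 2, and the cause was not tested. The replicate numbers did not pair the libraries: same-numbered libraries deviated from their group means with correlations of -0.027 to 0.121. With the replicate block 1557, 542, and 2573 genes were called, the log2 fold changes of NDRG1 were 1.32, 2.17, and 3.49, and the calls of DDIT4 and IGF2 were lost. Median-of-ratios scaling, 1 of the 19 alternatives, gave the deposited values again and so is no separate check. Members with 404 to 590 reads a library (NDRG2 and NDRG4) are less precise than NDRG1, and a difference of the size of their standard errors of 0.12 to 0.13 was not detectable here.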
